A study of Mus musculus with 10 samples.

Results

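Adult skeletal muscle contractile genes were followed as a list of 40 genes that build the sarcomere, couple excitation to contraction or mark the fibre type of adult muscle. They were matched by symbol, and each gene was read from the probe set that carries its symbol alone and has the highest mean level over the arrays. Of the 40 genes, 39 were measured, out of 18193 genes on the arrays, and Xirp2 was not analysed here because no probe set was matched to it. Of the 39 genes, 10 belong to the thick filament, 11 to the thin filament, 7 to the Z-disc and its elastic partners, 8 to excitation and calcium handling and 3 to energy supply. By fibre type, 14 are fast, 11 are slow and 14 are shared by both.

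The tissue was subcutaneous, from 6-week-old male Swiss nu/nu mice, which are immunodeficient (nude). Control was a biopsy from the healthy non-transplanted group, and Diabetic a biopsy from a non-transplanted group made diabetic by a single injection of streptozotocin, a toxin of pancreatic beta cells, 7 to 10 days before. All grafted mice had been made diabetic in the same way before transplantation. The paper reports that both kinds of graft then reversed hyperglycemia within the first days. Against Diabetic, the presence of a graft and a change of glycemia thus cannot be told apart. PSI grafts held Wistar rat islets in a plasma-based scaffold, PSI-F grafts held the same with skin fibroblasts cultured from nu/nu mice, and both were removed on days 1, 3, 7 and 10. Grafts were laid directly on the muscle of the abdominal wall, under the skin. There were 10 arrays, 1 for each condition, and the number of mice behind each array is not stated in these sources. Values are log2 levels, so a difference of 1 stands for 2-fold and of 2 for 4-fold, and array medians lay between 2.82 and 2.94. With 1 array per condition, differences between 2 arrays could not be set against replicates and carry no p-value.

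In the sarcomere, myosin heads of the thick filament pull on actin of the thin filament when calcium reaches the troponin complex. Calcium is released from the sarcoplasmic reticulum through the ryanodine receptor, is buffered there by calsequestrin, and is pumped back by the SERCA pumps. Fast and slow fibres build the same machine from different paralogs, so that most parts have a fast and a slow counterpart gene. Skin of the mouse carries a thin sheet of striated muscle, and the abdominal wall beneath it is skeletal muscle too.

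The regulatory sequence next to these genes is shown for the actin gene Acta1, whose level varied least, for the troponin C and calsequestrin counterparts Tnnc2 and Tnnc1, Casq1 and Casq2, and for Myoz2, whose level varied most. Each run is the 250 bases before the start that the RefSeq promoter table gives in GRCm38.p6, read 5′ to 3′ on the strand of the gene. For Myoz2 the last 16 bases of the run lie within the gene as annotated, and for the other genes shown 0 bases do. Capitals mark E-boxes (CANNTG), the site that MyoD family factors of muscle bind. The windows are chr8:123894776-123895025 (minus strand) for Acta1, chr2:164779735-164779984 (minus) for Tnnc2, chr14:31208062-31208311 (plus) for Tnnc1, chr1:172219896-172220145 (minus) for Casq1, chr3:102086165-102086414 (plus) for Casq2 and chr3:123034988-123035237 (minus) for Myoz2.
Acta1: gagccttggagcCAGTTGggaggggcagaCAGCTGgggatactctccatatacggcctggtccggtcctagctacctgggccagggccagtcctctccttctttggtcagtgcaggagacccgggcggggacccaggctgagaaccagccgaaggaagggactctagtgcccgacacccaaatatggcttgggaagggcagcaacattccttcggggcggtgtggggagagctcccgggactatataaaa
Tnnc2: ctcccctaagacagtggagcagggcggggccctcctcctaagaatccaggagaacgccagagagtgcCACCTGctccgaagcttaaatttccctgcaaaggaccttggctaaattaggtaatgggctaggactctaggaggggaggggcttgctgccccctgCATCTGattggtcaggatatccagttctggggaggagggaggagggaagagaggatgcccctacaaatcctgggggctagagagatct
Tnnc1: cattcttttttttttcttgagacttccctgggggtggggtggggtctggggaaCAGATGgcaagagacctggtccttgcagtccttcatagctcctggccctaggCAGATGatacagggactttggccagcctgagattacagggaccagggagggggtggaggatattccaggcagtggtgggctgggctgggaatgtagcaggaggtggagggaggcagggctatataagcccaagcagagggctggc
Casq1: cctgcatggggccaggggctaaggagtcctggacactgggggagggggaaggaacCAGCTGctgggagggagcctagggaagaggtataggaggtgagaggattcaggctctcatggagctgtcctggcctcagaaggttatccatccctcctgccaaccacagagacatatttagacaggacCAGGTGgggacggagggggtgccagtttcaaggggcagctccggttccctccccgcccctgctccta
Casq2: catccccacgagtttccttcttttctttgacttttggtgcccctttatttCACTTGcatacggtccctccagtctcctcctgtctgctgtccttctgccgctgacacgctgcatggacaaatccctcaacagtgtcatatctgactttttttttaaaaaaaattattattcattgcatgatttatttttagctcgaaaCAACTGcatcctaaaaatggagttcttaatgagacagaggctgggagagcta
Myoz2: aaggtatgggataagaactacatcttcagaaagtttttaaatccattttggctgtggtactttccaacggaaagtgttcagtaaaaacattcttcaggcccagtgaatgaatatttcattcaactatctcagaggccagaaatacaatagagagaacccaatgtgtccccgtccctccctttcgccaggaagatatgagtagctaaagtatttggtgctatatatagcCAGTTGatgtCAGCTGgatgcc

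Each of these 6 windows held 2 E-boxes, though the last E-box of Myoz2 lies within the gene as annotated. Of the 31 genes of the list that have a promoter in the RefSeq table, 27 (87.1%) held an E-box, which reads the same on both strands, against 9419 of 14452 genes in all (65.2%). The MEF2 consensus, searched on both strands, was found in 6 of the 31 (19.4%), namely Casq2, Myh1, Myh4, Myoz2, Pvalb and Ttn, against 2.34% of all genes. The CArG box, the site of serum response factor, was found in Acta1, Ldb3, Myh4 and Myl3, which is 12.9% against 1.43%. TATAAA between 40 and 21 bases before the start was found in Myh1, Myh4 and Tnnt1, 9.68% against 3.10% of all genes. No match of a motif overlapped a match of another in these genes. Among the slow genes 10 of 10 held an E-box, and among the fast genes 8 of 10. The matches describe letters in a window and say nothing of binding.

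Every one of the 39 genes was read well above the array medians, including in both non-transplanted biopsies. Their median level was 9.89 in Control and 10.87 in Diabetic. In the PSI grafts it was 10.41 on day 1, 10.25 on day 3, 10.73 on day 7 and 10.37 on day 10, and in the PSI-F grafts 10.38, 9.55, 10.59 and 10.43 on the same days. The arrays at both ends were thus Diabetic and the PSI-F graft of day 3. Of the 39 genes, 28 had their highest level of all 10 arrays in Diabetic, where 19.9% of all genes had theirs, and 7 in the PSI graft of day 7, against 9.73% of all genes. The lowest level was in the PSI-F graft of day 3 for 20 genes, against 9.51% of all genes, and in Control for 17, against 12.3%. Because the tissue was taken whole, fewer muscle fibres in a sample and less of these transcripts per fibre cannot be told apart.

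**Figure D1:**
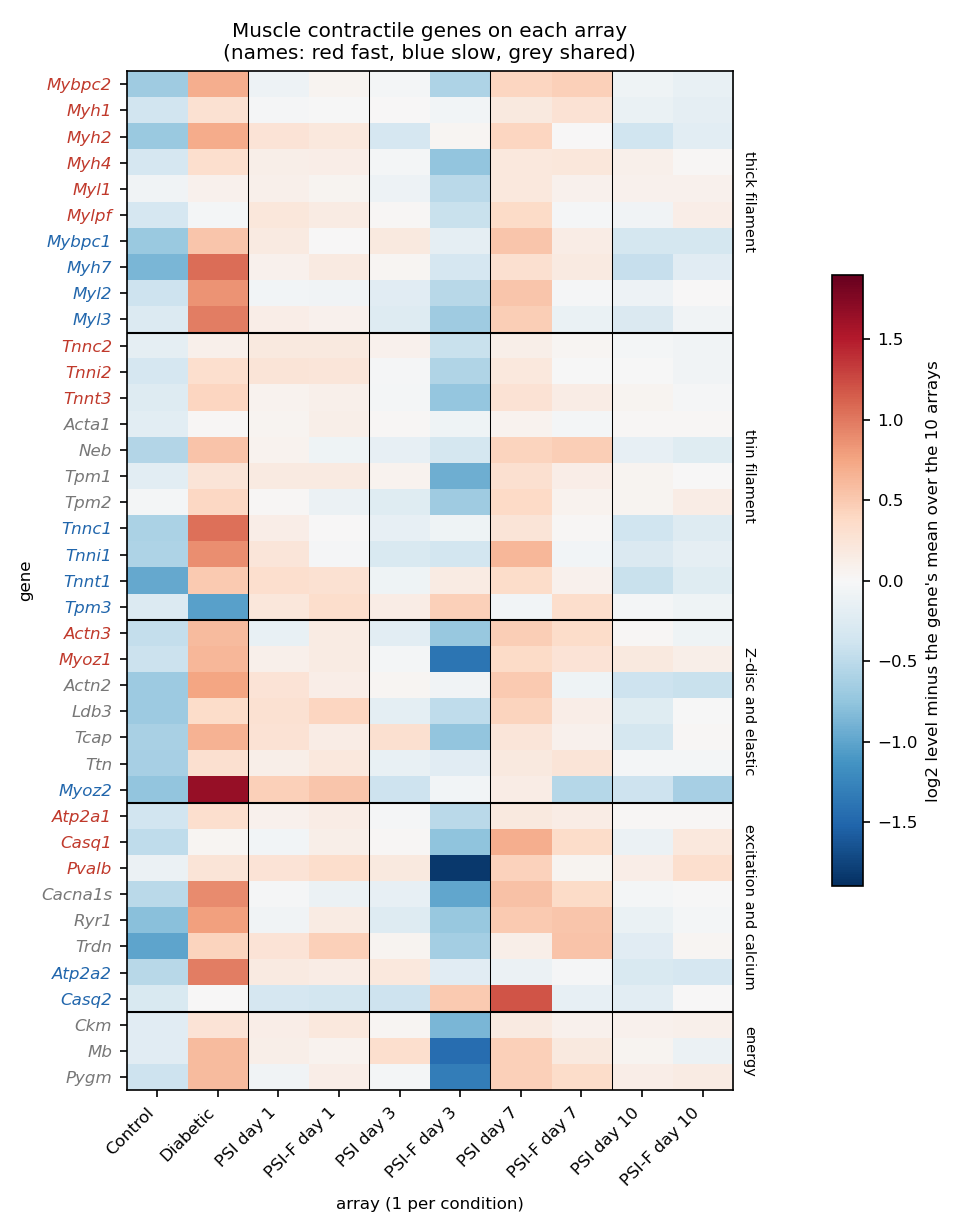
Level of each gene on each array (columns) minus that gene's mean over the 10 arrays, on the log2 scale (colour), with genes in rows grouped by role and named in red for fast, blue for slow and grey for shared. The Diabetic column is mostly red, and the PSI-F day 3 column is mostly blue, deepest for Pvalb, Mb and Myoz1.

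The markers of other muscle kinds were checked beside these levels. Of 8 genes of heart muscle, 5 stayed below the array medians on all 10 arrays (Myh6, Nppa, Tnni3, Myl7 and Mybpc3), and the summed level of the list lay between 57.0 and 232.4. Among 10 genes of developing and regenerating muscle, the embryonic myosin Myh3 read 6.89 and the fetal actin Actc1 9.37 in the PSI graft of day 7, where the median of that list was highest (5.10), against 2.96 in Control. Of the 10, 4 were highest there, 3 in the PSI-F graft of day 3, 2 in the PSI graft of day 1 and 1 in Diabetic. Actc1 also read 8.50 in the PSI-F graft of day 10. Of 9 smooth muscle genes, the median lay between 4.80 in Diabetic and 6.86 in the PSI-F graft of day 7. A further list of 35 measured genes of skeletal muscle had the same array at its upper end. Its median was lowest in Control (7.45), where 24 of its genes had their lowest level, and highest in Diabetic (9.20).

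Each gene was read by its own probe set, so levels of different genes are not set against each other. The probe sets of the fast genes had means over the 10 arrays from 10.21 to 12.44, and those of the slow genes from 5.63 to 9.73. Acta1 gave the highest value of all probe sets on each of the 10 arrays. Differences near such levels can be compressed on these arrays, and the part of this in the values was not tested.

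Among the motor proteins, Myh7, the slow and cardiac beta myosin heavy chain, had the widest range of the thick filament. It read 8.39 in Control and 10.33 in Diabetic, then 9.35, 9.30, 9.57 and 8.83 in the PSI grafts of days 1, 3, 7 and 10, and 9.43, 8.95, 9.44 and 9.05 in the PSI-F grafts. All 8 grafts thus lay between the biopsies. Myl3, a slow essential light chain, read 7.59 in Control, 8.82 in Diabetic, 7.97, 7.61, 8.32 and 7.58 in PSI, and 7.93, 7.18, 7.73 and 7.79 in PSI-F. These slow myosin genes were both highest in Diabetic. At the other end, the fast heavy chain Myh1 moved only within 10.89 in Control and 11.55 in Diabetic, with 11.23, 11.26, 11.44 and 11.13 in PSI and 11.25, 11.21, 11.53 and 11.09 in PSI-F. Myh4, the heavy chain of the fastest fibres, read 11.62 in Control, 12.27 in Diabetic, 12.06, 11.91, 12.15 and 12.04 in PSI, and 12.08, 11.20, 12.17 and 11.96 in PSI-F. Its value in the PSI-F graft of day 3 was below every other array, which was not so for Myh7. The myosin binding proteins of the thick filament behaved more alike. Mybpc2, the fast form, read 10.46 in Control, 11.83 in Diabetic, 11.05, 11.11, 11.55 and 11.06 in PSI, and 11.20, 10.56, 11.59 and 11.01 in PSI-F. Mybpc1, the slow form, read 9.02 in Control, 10.25 in Diabetic, 9.90, 9.91, 10.25 and 9.40 in PSI, and 9.73, 9.55, 9.87 and 9.39 in PSI-F.

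In the thin filament, the actin gene Acta1 was the steadiest of the 39, with 12.65 in Control, 12.87 in Diabetic, 12.89, 12.87, 12.91 and 12.87 in PSI, and 12.96, 12.77, 12.81 and 12.88 in PSI-F, a range of 1.24-fold. Tnnc1, the calcium sensor of slow and cardiac troponin, read 8.32 in Control and 9.97 in Diabetic, with 9.05, 8.77, 9.16 and 8.54 in PSI and 8.93, 8.84, 8.95 and 8.67 in PSI-F. Its fast counterpart Tnnc2 read 11.89 in Control, 12.16 in Diabetic, 12.25, 12.15, 12.17 and 12.03 in PSI, and 12.25, 11.64, 12.10 and 11.99 in PSI-F. Tnnc1 was thus lowest in Control, and Tnnc2 in the PSI-F graft of day 3. The inhibitory subunit of troponin showed the same split. Its slow form Tnni1 read 7.56 in Control, 9.03 in Diabetic, 8.37, 7.86, 8.78 and 7.87 in PSI, and 8.13, 7.80, 8.09 and 7.98 in PSI-F. Its fast form Tnni2 read 11.60 in Control, 12.24 in Diabetic, 12.16, 11.90, 12.12 and 11.91 in PSI, and 12.15, 11.35, 11.92 and 11.86 in PSI-F. So did troponin T, the subunit that binds tropomyosin. The slow form Tnnt1 read 8.15 in Control, 9.62 in Diabetic, 9.43, 9.03, 9.47 and 8.69 in PSI, and 9.41, 9.28, 9.21 and 8.88 in PSI-F. The fast form Tnnt3 read 11.66 in Control, 12.31 in Diabetic, 11.97, 11.86, 12.17 and 11.95 in PSI, and 11.99, 11.16, 12.05 and 11.87 in PSI-F. All 4 of these genes were highest in Diabetic, and the slow ones were lowest in Control, the fast ones in the PSI-F graft of day 3. Tpm3, the slow tropomyosin, ran against the rest, at 8.92 in Control, 8.15 in Diabetic, 9.40, 9.32, 9.12 and 9.14 in PSI, and 9.51, 9.63, 9.51 and 9.09 in PSI-F.

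That pattern of Tpm3 depended on the probe set. The gene also codes for cytoplasmic tropomyosins of non-muscle cells, and it has 5 probe sets on the array. The probe set with the highest mean (1427260_a_at) and 2 dimmer ones were lower in Diabetic than in Control, by differences of -0.76, -1.26 and -0.24. The other pair, 1449996_a_at and 1449997_at, were higher in Diabetic by 1.93 and 1.68. Both of these had their lowest value in the PSI-F graft of day 3, at 7.76 and 7.38, as 11 of the 14 fast genes did. Which transcripts each probe set reads was not tested here. Of the 15 genes with more than 1 probe set above the array medians, all probe sets had 1 sign in 12 for Diabetic against Control, the exceptions being Tpm1, Tpm3 and Atp2a2, and in 11 for PSI-F against PSI on day 3, where Ttn was the fourth exception.

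**Figure D2:**
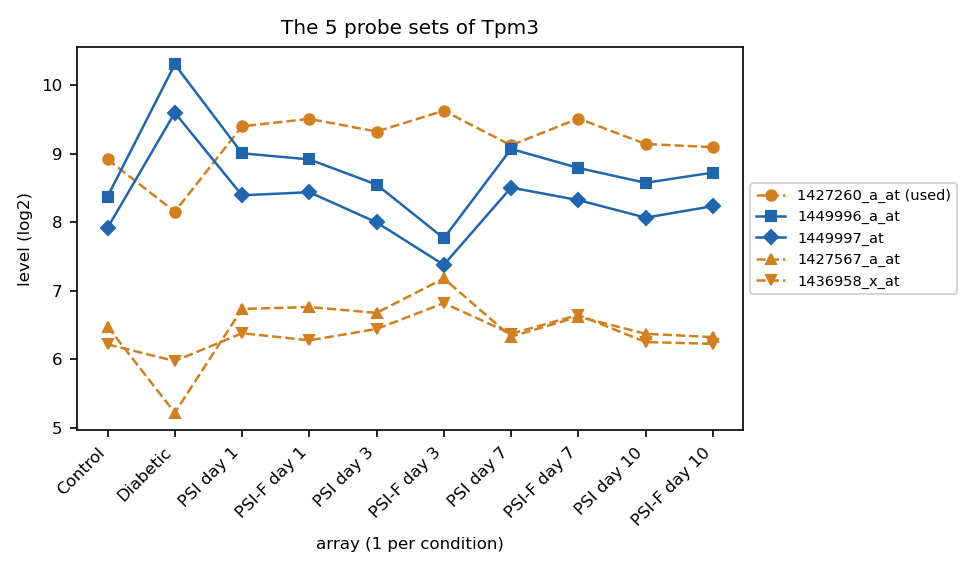
Log2 level (vertical axis) of the 5 probe sets of Tpm3 on each array (horizontal axis). Probe sets in blue with solid lines were higher in Diabetic than in Control, and those in orange with dashed lines, among them the probe set used (circles), were lower.

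At the Z-disc, Myoz2, the slow and cardiac calsarcin that tethers calcineurin, had the widest range of the 39 genes, 5.29-fold. It read 7.08 in Control and 9.48 in Diabetic, with 8.28, 7.44, 7.97 and 7.43 in PSI and 8.35, 7.77, 7.29 and 7.19 in PSI-F. All 8 grafts thus lay between the biopsies, and each was more than 2-fold below Diabetic. Myoz1, the fast calsarcin, read 9.90 in Control, 10.94 in Diabetic, 10.41, 10.28, 10.68 and 10.50 in PSI, and 10.48, 8.93, 10.58 and 10.43 in PSI-F. Its single low value was the PSI-F graft of day 3. Ttn, the giant elastic spring titin, had the narrowest range of this group, at 10.78 in Control, 11.72 in Diabetic, 11.54, 11.28, 11.61 and 11.37 in PSI, and 11.62, 11.20, 11.66 and 11.39 in PSI-F.

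Among the genes of excitation and calcium, Pvalb (probe set 1417653_at), the calcium buffer parvalbumin that speeds relaxation of fast fibres, showed the deepest dip of all. It read 11.25 in Control and 11.61 in Diabetic, 11.62, 11.55, 11.80 and 11.49 in PSI, and 11.69, 9.53, 11.41 and 11.69 in PSI-F. Apart from the 9.53 of the PSI-F graft of day 3, all its values lay within 11.25 and 11.80. Cacna1s, the voltage sensor of the T-tubule, read 6.97 in Control, 8.38 in Diabetic, 7.46, 7.33, 8.03 and 7.44 in PSI, and 7.37, 6.49, 7.84 and 7.47 in PSI-F. The fast SERCA pump Atp2a1, the steadiest of this group, read 11.57 in Control, 12.25 in Diabetic, 12.01, 11.91, 12.11 and 11.95 in PSI, and 12.07, 11.42, 12.07 and 11.95 in PSI-F. Like Cacna1s, it was lowest in the PSI-F graft of day 3. The slow pump Atp2a2 read 8.86 in Control, 10.36 in Diabetic, 9.57, 9.60, 9.28 and 9.11 in PSI, and 9.53, 9.18, 9.37 and 9.07 in PSI-F, so all its grafts lay between the biopsies. The calsequestrins went separate ways. Casq1, the fast form, read 9.73 in Control, 10.25 in Diabetic, 10.15, 10.24, 10.90 and 10.10 in PSI, and 10.32, 9.45, 10.56 and 10.42 in PSI-F. Casq2, the slow and cardiac form and the dimmest of the 39, read 5.34 in Control, 5.63 in Diabetic, 5.31, 5.24, 6.82 and 5.42 in PSI, and 5.28, 6.13, 5.48 and 5.64 in PSI-F, so that its highest values were in the PSI graft of day 7 and the PSI-F graft of day 3. Those were also the arrays on which the heart genes Tnnt2 (6.31 and 6.30) and Myl4 (7.03 and 5.32), both also made in developing skeletal muscle, were highest, and the part of that in Casq2 was not tested.

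Genes of energy supply shared the dip of day 3. Mb, the oxygen store myoglobin, read 10.57 in Control, 11.39 in Diabetic, 10.89, 11.10, 11.24 and 10.83 in PSI, and 10.85, 9.33, 10.98 and 10.67 in PSI-F. Pygm, the muscle glycogen phosphorylase, read 9.86 in Control, 10.85 in Diabetic, 10.18, 10.21, 10.71 and 10.37 in PSI, and 10.38, 8.94, 10.60 and 10.40 in PSI-F. The muscle creatine kinase Ckm moved least, at 11.91 in Control, 12.39 in Diabetic, 12.25, 12.16, 12.30 and 12.21 in PSI, and 12.33, 11.26, 12.20 and 12.23 in PSI-F. All 3 genes were lowest in the PSI-F graft of day 3 and highest in Diabetic.

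The non-transplanted biopsies were compared first, to see what diabetes without a graft went with. Of the 39 genes, 38 were higher in Diabetic than in Control, against 49.8% of all genes, and Tpm3, read by the probe set named above, was the exception. At least 2-fold higher were 20 genes, where 4.12% of all genes were, and Myoz2 was more than 4-fold higher (2.40), where 0.473% were. The median difference was 1.03, and that of all genes was 0.00. Next in order came Myh7 (1.94), Tnnc1 (1.64) and the ryanodine receptor Ryr1 (1.57). The smallest differences were those of the fast light chain Myl1 (0.15), Acta1 (0.22) and Tnnc2 (0.27). Pygm (0.98) lay just under 2-fold and Myoz1 (1.03) just over it.

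**Figure D3:**
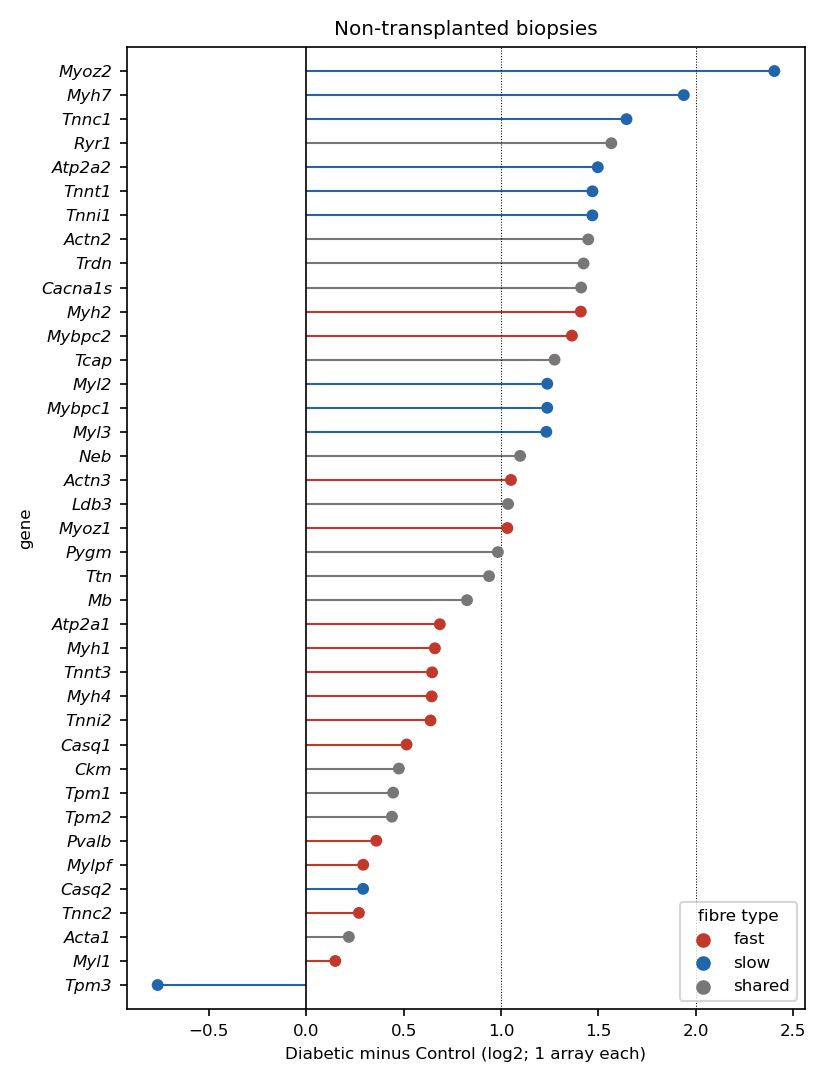
Diabetic minus Control on the log2 scale (horizontal axis) for each of the 39 genes (rows), in red for fast, blue for slow and grey for shared, with 1 array on each side and dotted lines at 2-fold and 4-fold. All but Tpm3 lie right of 0, and Myoz2, Myh7 and Tnnc1 of the slow fibre lead.

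Slow genes differed more between the biopsies than fast ones. The median was 1.47 over the 11 slow genes, 9 of them at least 2-fold higher, and 0.64 over the 14 fast genes, of which 4 were (Myh2, Mybpc2, Actn3 and Myoz1). In 6 of 8 counterpart pairs the fast gene differed less than the slow one. The gap was widest for Tnnc2 against Tnnc1 (0.27 and 1.64) and for Myoz1 against Myoz2 (1.03 and 2.40). Casq1 against Casq2 (0.51 and 0.29) and Mybpc2 against Mybpc1 (1.36 and 1.24) went the other way. Levels of the fast genes are nearer to the top of the array's range, and the part of that in the gap was not tested. The other skeletal muscle genes were higher in Diabetic in 35 of 35 cases, 22 of them at least 2-fold, with the leiomodin gene Lmod2 furthest at 3.11 (6.71 and 9.83). Genes of epidermis were lower in 4 of 5 cases, with a median of -1.26 and summed levels of 14522 in Control and 7496 in Diabetic. Smooth muscle genes were lower in 6 of 9 cases, with a median of -0.54 and summed levels of 1063 and 1076. The part of tissue composition in the difference of the muscle genes was not tested.

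Next, PSI-F was set against PSI on each day, to see whether fibroblasts in the graft went with more or less muscle transcript. On day 1, 20 of the 39 genes were lower in PSI-F (53.4% of all genes were), and none was 2-fold lower (0.819% of all genes were). Differences lay between -0.24 (Tnni1) and 0.30 (Actn3). The fast median minus the slow median was 0.04, and -0.01 with cyclic loess on top of the deposited values, so it has no settled sign on this day.

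On day 3, 33 of the 39 genes were lower in PSI-F, against 50.2% of all genes, with a median of -0.45 where that of all genes was 0.00. At least 2-fold lower were 5 genes, where 1.87% of all genes were. These were Pvalb (-2.01), Mb (-1.77), Myoz1 (-1.35), Pygm (-1.27) and Tcap (-1.06), the titin cap of the Z-disc. Pvalb alone passed 4-fold, as did 0.566% of all genes. Tpm1, a tropomyosin, lay at the 2-fold line without passing it (-0.996), followed by Ckm (-0.89) and Cacna1s (-0.83). The 6 genes higher in PSI-F were Casq2 (0.89), Myh2 (0.35), Myoz2 (0.34), Tpm3 (0.30), Tnnt1 (0.24) and Tnnc1 (0.07). Apart from Myh2, a fast oxidative heavy chain, these belong to the slow set. For Tpm3 the sign depended on the probe set, as 1449996_a_at and 1449997_at were lower in PSI-F by differences of -0.78 and -0.62.

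The fast and the slow sets lay apart on this day. The median was -0.53 over the fast genes, with 13 of 14 lower, and -0.06 over the slow genes, with 6 of 11 lower. The slow values count Tpm3 as higher, by the probe set used. With 1449996_a_at or 1449997_at in its place, more slow genes would count as lower. The slow median would then be the value of Myl2 (-0.32), nearer to the fast median. With Tpm3 and Atp2a2 left out, the fast median minus the slow median was -0.47, as it was with both. Shared genes were lower in 14 of 14 cases, with a median of -0.58. In 8 of 8 counterpart pairs the fast gene lay below the slow one in this difference, by between -0.08 for the SERCA pumps (Atp2a1 -0.50, Atp2a2 -0.42) and -1.69 for the calsarcins (Myoz1 -1.35, Myoz2 0.34). Tnnc2 and Tnnc1, whose promoters are printed above, differed by -0.51 and 0.07, and Casq1 and Casq2 by -0.79 and 0.89. The same pairs gave 2 of 8 on day 1, 1 of 8 on day 7 and 5 of 8 on day 10, so the order held in all pairs on no other day.

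**Figure D4:**
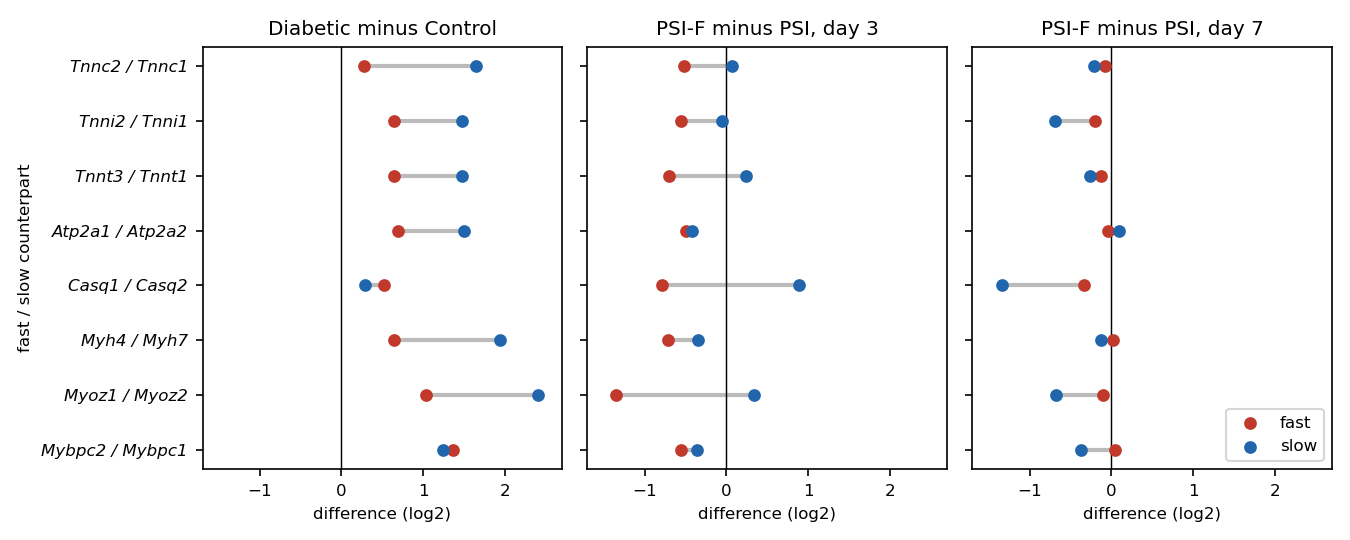
Difference on the log2 scale (horizontal axis) of each fast gene (red) and its slow counterpart (blue), joined by a grey line, for Diabetic minus Control and for PSI-F minus PSI on days 3 and 7, with 1 array on each side. On day 3 each red point lies left of its blue one, in 8 of 8 pairs, and between the biopsies in 6 of 8.

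Other genes moved on the same pair of arrays. Hair follicle markers differed by 4-fold or more on day 3 in 8 of 8 cases, all lower in the PSI-F graft (median -6.26), and their summed level was 4324 in the PSI and 61.9 in the PSI-F graft. Macrophage markers were higher in 6 of 6 (median 0.77), with summed levels of 2898 and 5420. Markers of regenerating muscle were higher in 7 of 10 (median 0.60), with summed levels of 269 and 503, among them Chrng, the fetal subunit of the acetylcholine receptor (2.72 and 4.01), and the receptor subunit Chrna1 (7.03 and 8.22). Of the 35 other muscle genes, 26 were lower (median -0.19). Cox7a1, a respiratory chain subunit of muscle, was furthest down at -1.99 (7.79 and 5.80), while Ankrd2, a stretch response gene of slow muscle, was furthest up at 2.58 (6.25 and 8.83). Adipocyte markers were lower in 6 of 6 (median -0.75), furthest for Cidec (-1.22), and epidermis markers higher in 5 of 5 (median 0.51), with summed levels of 8378 and 12468. The part of tissue composition in the day 3 difference was not tested.

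On day 7, 30 of the 39 genes were lower in PSI-F, where 57.2% of all genes were, by a median of -0.15. Casq2 alone was at least 2-fold lower (-1.34), against 0.824% of all genes. The slow genes lay lower than the fast ones here, with medians of -0.38 and -0.12, the reverse of day 3. After Casq2 came Tnni1 (-0.68), Myoz2 (-0.68) and Myl3 (-0.59), all slow. In the PSI graft of day 7, 24 of the 39 genes had their highest level among the 8 grafts, where 14.1% of all genes had theirs. Markers of regenerating muscle were lower in PSI-F on day 7 in 8 of 10 cases (median -0.34), 3 of them by 4-fold or more, among these Myh3 (6.89 in PSI and 3.41 in PSI-F) and Actc1 (9.37 and 5.29). The other 2 were higher, namely Chrna1 (6.46 and 6.85) and the factor Myod1 (4.01 and 4.39). Hair follicle markers were higher in PSI-F in 8 of 8, 7 of them at least 2-fold (median 1.92), with summed levels of 599 and 2344. The part of these lists in the day 7 difference was not tested.

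On day 10, 17 of the 39 genes were lower in PSI-F (48.3% of all genes were) and 22 higher, with none 2-fold lower (0.346% of all genes were). Differences lay between -0.24 (Myoz2) and 0.35 (Tcap). The fast median was -0.04 and the slow median 0.11. Over the 4 days, 6 of the 39 genes were lower in PSI-F each time (Mybpc1, Tnnc2, Tnni2, Tpm1, Actn2 and Mb), against 8.19% of all genes, and 0 were higher each time, against 6.6%.

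**Figure D5:**
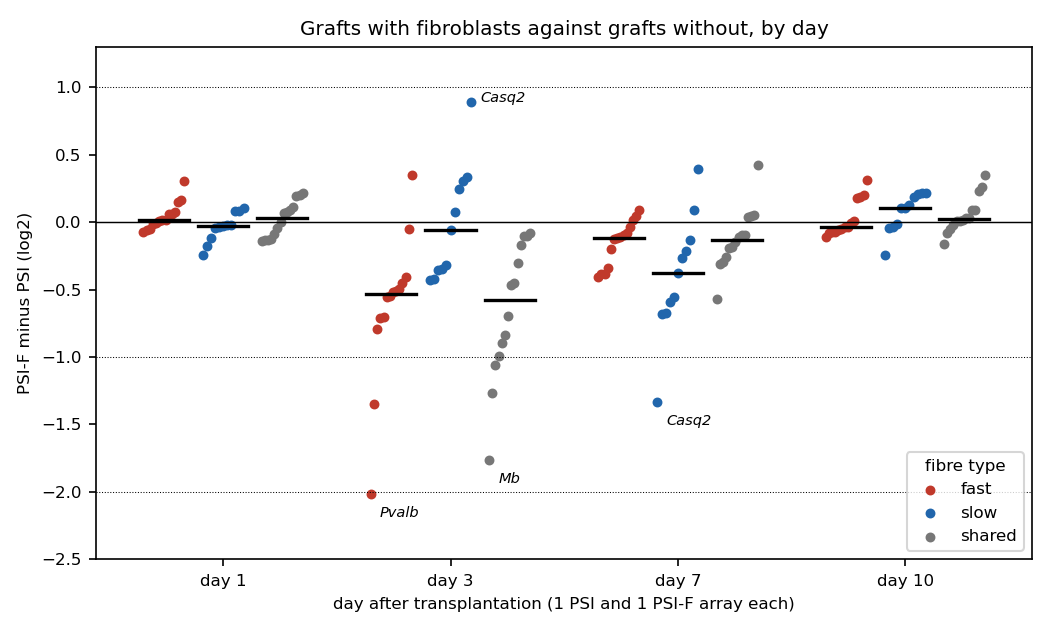
Log2 difference between the PSI-F and the PSI graft (vertical axis) for the 39 genes on days 1, 3, 7 and 10 (horizontal axis), in red for fast, blue for slow and grey for shared, each point being a gene on 1 pair of arrays and each black bar a median. Points spread on days 3 and 7, with Pvalb at -2.01 and Mb at -1.77 lowest on day 3, and stay within 0.35 of 0 on days 1 and 10.

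Taking the 4 days as pairs, PSI-F and PSI were also tested with limma over 45037 probe sets, with the day as a block. Of the 39 genes, 0 passed an adjusted p of 0.05, as did 0.0% of all genes, and 0 passed at an unadjusted p of 0.05, where 6.28% of all genes did. The smallest adjusted p in limma was 0.751. The median difference was -0.16, and that of all genes was -0.02. Mb had -0.56 (SE 0.27, 95% interval -1.18 to 0.06) and Pvalb -0.53 (SE 0.33, interval -1.30 to 0.23), so changes of 2-fold lower were within both intervals. Without day 3, the median over the 39 genes was -0.04. Of the other muscle genes, 0 of 35 passed, and 7 had an unadjusted p under 0.05, all lower, to be read against the same 6.28%.

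The course over time was tested as days 7 and 10 against days 1 and 3. Of the 39 genes, 0 passed in limma, where 0.374% of all genes did, and the smallest adjusted p was 0.259. At an unadjusted p of 0.05, 2 of the 39 genes passed, where 16.8% of all genes did. Tpm2, the beta tropomyosin, was higher late by 0.40 (SE 0.15, limma adjusted p 0.259) and Cacna1s by 0.54 (SE 0.22, limma adjusted p 0.301). The median was 0.17, and it was 0.01 without the PSI-F graft of day 3. On the 4 arrays of days 7 and 10, 12 of 24 spiked poly-A control probe sets were higher than on any of the other 6 arrays, so the time and the handling of those arrays cannot be told apart.

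Finally, grafts were compared with the tissue without a graft. Lower than Diabetic on all 8 grafts were 28 of the 39 genes, against 22.7% of all genes, and all 8 differences share 1 Diabetic array. On at least 1 graft 4-fold lower were Myoz1, Myoz2, Pvalb and Mb, against 1.98% of all genes. With cyclic loess on top, Myoz2 alone passed, while Pvalb (-1.99), Mb (-1.97) and Myoz1 (-1.93) fell just short of the 4-fold line. Of the 39, Myoz2 alone was at least 2-fold lower on all 8 grafts, against 1.08% of all genes. Higher than Control on all 8 grafts were 18 of the 39 genes, against 17.5% of all genes. On the 7 grafts other than PSI-F day 3, left out after its values were seen, 35 were, against 19.3%, and all share 1 Control array. All 8 grafts lay between the biopsies only for the genes in both counts over 8 grafts, among them Myh7, Myoz2 and Atp2a2. The share of all genes for which this held was not computed. Median differences from Diabetic ran from -0.14 in the PSI graft of day 7 to -1.08 in the PSI-F graft of day 3, and those from Control from -0.10 in the PSI-F graft of day 3 to 0.84 in the PSI graft of day 7. By their medians, slow genes were further below Diabetic than fast ones on each of the 8 grafts. By counterpart pairs the PSI-F graft of day 3 was split, with the fast gene further below Diabetic in 4 of 8. The difference between the medians was smallest in the PSI graft of day 7 (fast -0.12, slow -0.32) and largest in the PSI graft of day 10 (fast -0.32, slow -1.16).

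The 8 grafts together against both biopsies gave 0 of the 39 genes in limma, where 2.85% of all genes passed. The median was -0.01. Tpm3 was the nearest, higher in the grafts by 0.81 (SE 0.20, limma adjusted p 0.0655), and its probe sets 1449996_a_at and 1449997_at were lower by differences of -0.66 and -0.59. The biopsies stood on both sides of the grafts, so the result rests on which of them is used. Without Control, 5 genes passed (Tpm3 higher, and Myh7, Tnnc1, Myoz2 and Atp2a2 lower), where 10.9% of all genes passed, with 1 biopsy left that is assumed to vary like the grafts. Without Diabetic, 0 passed in limma and 9 were at an unadjusted p of 0.05, where 15.5% of all genes were.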

How the data were processed

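RNA of subcutaneous tissue was hybridized to 10 Affymetrix mouse genome arrays, selected by the authors for RNA quality, 1 per condition. The values deposited by the authors are log2 levels per probe set made by RMA (R 2.15.0 and affy 1.36.0 in the submitters' processing notes). Mouse probes read rat transcripts only where these bind. Of 45101 probe sets, 64 controls were left out and 45037 tested, and 34945 carry 1 symbol, 932 several and 9160 none. Each gene was read from its single-symbol probe set of highest mean. Among the 39 measured genes, 23 had 1 probe set and 16 several, 79 in all. Myh7 shares further probe sets with Myh6 that were not used.

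Single arrays were compared by differences of log2 values. limma 3.58.1 in R 4.3.3 tested 3 contrasts, namely PSI-F against PSI within a day block, late (days 7 and 10) against early (days 1 and 3) grafts with the kind of graft as covariate, and grafts against biopsies, with Benjamini-Hochberg adjustment over all 45037 probe sets. Days served as replicates, so p-values measure the spread between these arrays, whose number limits the precision. The procedure was tested on simulated data with known changes. Medians over the genes are descriptions. Python 3.11.15 with pandas 2.3.3 and numpy 2.4.6 wrote the tables, and matplotlib 3.10.9 drew the figures.

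The genes, the lists and the alternatives were chosen with earlier results of these data known. Any listed gene could be named. Values on all arrays were given for the 2 with the widest range and the 1 with the narrowest in each role and for the fast and slow counterparts, and other muscle genes were named among the 6 with the widest range. Marker genes given beside a result were picked with their values known. Alternatives were a 2-fold threshold, cyclic loess (3 iterations) on top of the deposited values, averaging a gene's probe sets, a filter on dim probe sets, Control as baseline, an intensity trend, other covariates, and leaving out each array or day.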

Additional observations from a re-analysis of the deposited data

Results flagged for a closer look

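Casq2 differed in opposite directions on days 3 and 7. PSI-F minus PSI was 0.89 on day 3 (5.24 and 6.13 in PSI and PSI-F) and -1.34 on day 7 (6.82 and 5.48), a gap of 2.23 on the log2 scale. For Pvalb the difference was -2.01 on day 3 (11.55 and 9.53) and 0.20 on day 10 (11.49 and 11.69), a gap of 2.21. Each of these differences rests on 1 array on each side, and the gap between the days was not tested.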

How the results depend on the processing

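With a 2-fold in place of a 4-fold threshold, 5 genes in place of 1 were apart between PSI-F and PSI on day 3. On day 7 the count was 1 in place of 0, and between the biopsies 20 in place of 1. From Diabetic, 26 in place of 4 were apart on at least 1 graft. The 26 count both directions, with Tpm3 and Casq2 at least 2-fold higher, while the 4 were all lower. Each gene could reach this on any graft, against the same Diabetic array, and the share of all genes at 2-fold was not computed. Cyclic loess on top of the deposited values left 1 gene at least 4-fold from Diabetic, and 9 in place of 20 lower in PSI-F on day 1. The shares of all genes with cyclic loess were not computed, so these counts have nothing to be read against. With Control as the baseline, 0 genes were 4-fold apart from it. Without dim probe sets, 1 gene (Tpm3, limma adjusted p 0.04995) in place of 0 passed in grafts minus biopsies, where 666 genes in all passed. The fit without Control, given above, rests on 1 biopsy. The median of that comparison was -0.45 without Control and 0.42 without Diabetic. Of the 93 recomputed values that answer a comparison, 84 were counts within 1.5 times or fast minus slow differences within 1 SD over the days, and 9 were not. These limits are loose. The SD, 0.31, is that of the 4 day differences themselves, and in each fit of PSI-F against PSI 0 of all genes passed. With cyclic loess, the fast minus slow difference of day 1 changed sign, from 0.04 to -0.01. The cause of these shifts was not tested. Replicate numbers pair no arrays, since each condition has 1 array. PSI-F and PSI were paired by day, and the fit with the day as a block left 0 calls, as did the fit without it. Without replicates within a condition, no difference between 2 arrays can be set against the spread of that condition. Values of Casq2, the dimmest gene, lie closest to the background.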

Other observations

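Of all 18193 genes, the largest difference upward in Diabetic against Control was that of Trim63 (4.26), a muscle ubiquitin ligase known for its role in muscle wasting. This gene is on neither muscle list and was chosen after its values were seen. Its level was 6.67 in Control and 10.93 in Diabetic, while the 8 grafts read between 6.86 and 7.68. The recipients had also been made diabetic, but the paper reports that both kinds of graft reversed hyperglycemia. The part of this in the lower levels of the grafts was not tested. Both the level in Diabetic and the difference rest on 1 array.

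Of the 6 other muscle genes with the widest range, 4 were highest on day 1. The range that selected them was taken over the same arrays, and the share of all genes was not computed. Of the whole list of 35, 16 were highest in Diabetic, 6 in the PSI graft of day 1 and 4 in the PSI-F graft of day 1. Ankrd2 read 5.26 in Control, 8.07 in Diabetic, 10.02, 6.25, 7.30 and 5.61 in PSI and 10.06, 8.83, 6.18 and 6.04 in PSI-F, with both day 1 grafts at the top. Flnc, a filamin of the Z-disc, read 9.22 and 9.44 on day 1 in PSI and PSI-F and 7.22 and 7.09 on day 10. Klhl40 read 8.13 in both grafts of day 1 and 5.55 and 5.96 on day 10, and Csrp3, a muscle LIM protein, 10.40 and 10.26 on day 1 and 8.32 in both on day 10. Late against early grafts, 0 of the 35 genes passed in limma (smallest adjusted p 0.122), and 10 had an unadjusted p under 0.05, 7 lower and 3 higher late, where 16.8% of all genes did.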
